A study of Caenorhabditis elegans with 12 samples.

Results

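The 42 genes described here encode the enzymes that carry carbon through glycolysis, gluconeogenesis, trehalose and glycogen metabolism and the tricarboxylic acid (TCA) cycle in C. elegans. They were chosen by gene name, with earlier results of these data known, so shares set beside all genes are descriptive. All 42 were found among the 46726 gene identifiers of the N2 table. They comprise 9 genes of upper glycolysis (hxk-1, hxk-2, hxk-3, gpi-1, pfk-1.1, pfk-1.2, aldo-1, aldo-2 and tpi-1), 9 of lower glycolysis (gpd-1, gpd-2, gpd-3, gpd-4, pgk-1, ipgm-1, enol-1, pyk-1 and pyk-2) and the lactate dehydrogenase ldh-1. There are 4 genes of gluconeogenesis (pyc-1, pck-1, pck-2 and fbp-1), 4 of trehalose and glycogen metabolism (tps-1, tps-2, gsy-1 and pygl-1) and 15 of the TCA cycle and related dehydrogenases. All 42 passed the filter of a mean of at least 5 normalized counts and were tested.

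The larvae were of the Bristol N2 strain, the wild type, in liquid culture at 20 °C with HB101 bacteria as food. A synchronous culture was divided at 6 h after hatching, in the first larval stage (L1). The study calls the stage late L1 in its title and early L1 in its figure title. The 3 treated cultures received the ascarosides ascr#8, ascr#3 and ascr#2, small molecules that act as dauer-inducing pheromones, in ethanol, and the 3 control cultures received ethanol alone. RNA was taken from whole larvae 3 h later. The sample labels give a total of 5 µM ascarosides and the methods of the study a lower concentration. The libraries are called treated libraries 1 to 3 and control libraries 4 to 6, as numbered in the table. All 6 came from one population, so the p-values below measure the spread between cultures of that population. Libraries of daf-22(ok693) larvae were not analysed here.

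Glycolysis splits glucose into pyruvate and yields ATP, and most of its steps are reversible. Gluconeogenesis runs these steps backwards and bypasses the irreversible ones with pyruvate carboxylase, phosphoenolpyruvate (PEP) carboxykinase and fructose-1,6-bisphosphatase. In nematodes the glyoxylate cycle, which shares steps with the TCA cycle, lets carbon from stored fat enter gluconeogenesis, and trehalose, a disaccharide of glucose, serves as a storage sugar and stress protectant. Dauer larvae do not feed and are known for relying on stored fat, so the balance between these routes is of interest when larvae receive dauer-inducing pheromone.

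Values are normalized counts, the reads on a gene divided by the size factor of the library, with between 11133417 and 19116807 reads on genes in a library. The software limma gave the fold changes, intervals and p-values on the scale of log2(normalized count + 1), and "called" means a Benjamini-Hochberg adjusted p under 0.05 over all 14965 genes tested. The tissue markers for intestine, muscle, pharynx, neurons, epidermis and germ line were all detected, and the 3 yolk protein genes of adults summed to between 2.61 and 21.3 normalized counts in a library. Because RNA came from whole larvae, a change in the number of cells of a type and a change in RNA per cell cannot be told apart.

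With ascarosides, 4 of the 42 genes rose and 0 fell (edgeR and DESeq2 also called 0 lower). The 4 were aldo-2 and gpi-1 of upper glycolysis, the PEP carboxykinase gene pck-2 and the cytosolic aconitase gene aco-1. This is 9.52% of the genes, all of them higher, where 2.06% of all genes tested were called higher and 1.46% lower (3.52% in either direction). At an unadjusted p under 0.05, 14 of the 42 were higher (33.3%, against 8.05% of all genes tested) and 1, sucg-1, was lower (against 7.13%). The treated values were all above the controls in 10 of the 42 genes (23.8%, against 9.78% of all genes tested) and all below in 1 (against 9.53%). At an unadjusted p under 0.001 there were 2, both higher (against 1.66% of all genes tested). The fold changes were small. The median log2 fold change of the 42 genes was 0.15 (0.25 without control library 4), beside 0.0019 over all genes tested, and 35 of the 42 values were above 0 (83.3%, against 50.3% of all genes tested). Without limma's trend option 0 of the 42 genes and 1 of all genes tested were called.

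One control library bears on these counts and is described first. Control library 4 gave the highest value of the 3 controls in 31 of the 42 genes (73.8%), against 34.2% of all genes tested, and it lay within the range of the treated values for 19 and above all of them for 10. The treated values lay above both other controls, libraries 5 and 6, in 28 of the 42 genes (66.7%, against 19.6% of all genes tested) and below both in 2 (against 19.6%). When each library was left out in turn, the number of called genes was 17 of 42 without control library 4, all of them higher (40.5%, against 5.22% of all genes tested higher and 4.38% lower in that fit). It was 2 without control library 5 (4.76%, against 3.76% of all genes tested in either direction). It was 1 without any one of treated libraries 1, 2 and 3 or control library 6 (2.38%, against 1.66%, 1.45%, 2.21% and 2.23% of all genes tested), so these shares were near the background. Control library 4 also had the smallest share of its table total in reads aligned to more than one place (31.6%, against 33.0% to 40.4% in the other 5), and the part of this in the result was not tested. It was singled out from these same values. Where it was the highest control, leaving it out must raise the log2 fold change. The adjusted p-values without control library 4 are therefore descriptive and no separate support for a change. The values with all 6 libraries are the main ones below. Those without control library 4 are given beside them for each of the 42 genes whose call differed. A gene with no second value can still have moved. The log2 fold change of hxk-3 went from 0.16 to 0.26 and that of ldh-1 from 0.14 to 0.28. Each pathway count below is to be read beside the shares of all genes tested given above.

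**Figure D1:**
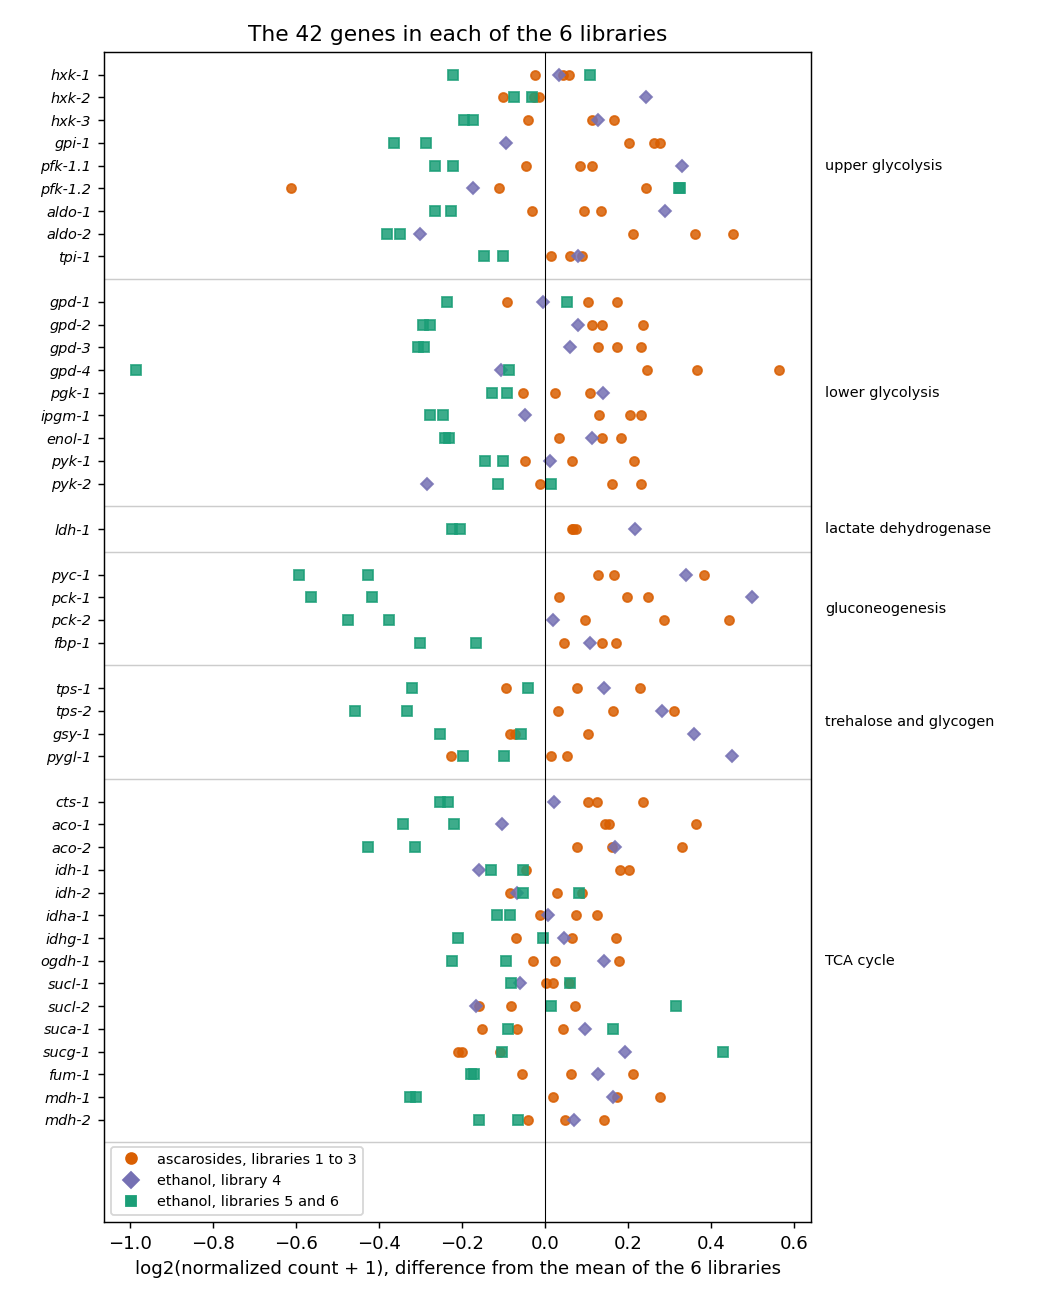
Each row is a gene and each point a library, placed by the difference of its log2(normalized count + 1) from the mean of that gene over the 6 libraries. The diamonds of control library 4 are the highest control in 31 of the 42 genes, while the squares of control libraries 5 and 6 lie mostly to the left of the 3 treated circles.

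In upper glycolysis, 2 of 9 genes rose (against 2.06% of all genes tested) and 0 fell, and the median log2 fold change was 0.11. The median was 0.26 without control library 4, where 4 of 9 were higher (against 5.22% of all genes tested). It was 0.035 without control library 6 and 0.028 with quantile normalization. The aldolase gene aldo-2 (WBGene00017166), whose enzyme splits fructose-1,6-bisphosphate into trioses, had the largest of the called changes. Its normalized counts were 19808, 21114 and 17847 with ascarosides and 12503, 11847 and 12096 without. The groups did not overlap, and control library 4 lay with the other controls. The mean was 19590 ± 1645 (SD, n = 3) with ascarosides and 12148 ± 331 (SD, n = 3) without, 1.61-fold apart, or 0.69 on the log2 scale (standard error 0.120, limma adjusted p = 0.00268). It was the only one of the 42 genes called whichever library was left out, and its adjusted p was 0.109 in eBayes without trend.

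The glucose-6-phosphate isomerase gene gpi-1 (WBGene00013597), which acts between hexokinase and phosphofructokinase and in both directions of the pathway, had 3637, 3834 and 3796 normalized counts with ascarosides and 2964, 2592 and 2457 without. All treated values were above all controls. The means of 3756 ± 105 and 2671 ± 262 (SD, n = 3) gave a log2 fold change of 0.50 (standard error 0.106, limma adjusted p = 0.0124). The adjusted p of gpi-1 was above 0.05 in eBayes without trend (0.190) and without treated library 1 (0.0625), 2 (0.105) or 3 (0.075) or control library 6 (0.101).

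The irreversible steps of upper glycolysis were not called. The phosphofructokinase gene pfk-1.1, the committed step, had 2789, 3112 and 3054 normalized counts with ascarosides and 3617, 2469 and 2395 without. Control library 4 was above all treated values and the others below all of them. Its log2 fold change was 0.10 (95% interval -0.19 to 0.39), and 0.29 without control library 4 (limma adjusted p = 0.0497). Its paralogue pfk-1.2 had between 11.8 and 23.5 normalized counts in a library, with a log2 fold change of -0.32 (95% interval -1.15 to 0.52). The hexokinase genes hxk-1, hxk-2 and hxk-3, which phosphorylate glucose, had log2 fold changes of 0.052, -0.093 and 0.16, and their groups overlapped. The remaining genes, aldo-1 and the triose-phosphate isomerase gene tpi-1, had log2 fold changes of 0.13 and 0.11, and for aldo-1 it was 0.31 without control library 4 (limma adjusted p = 0.0324).

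**Figure D2:**
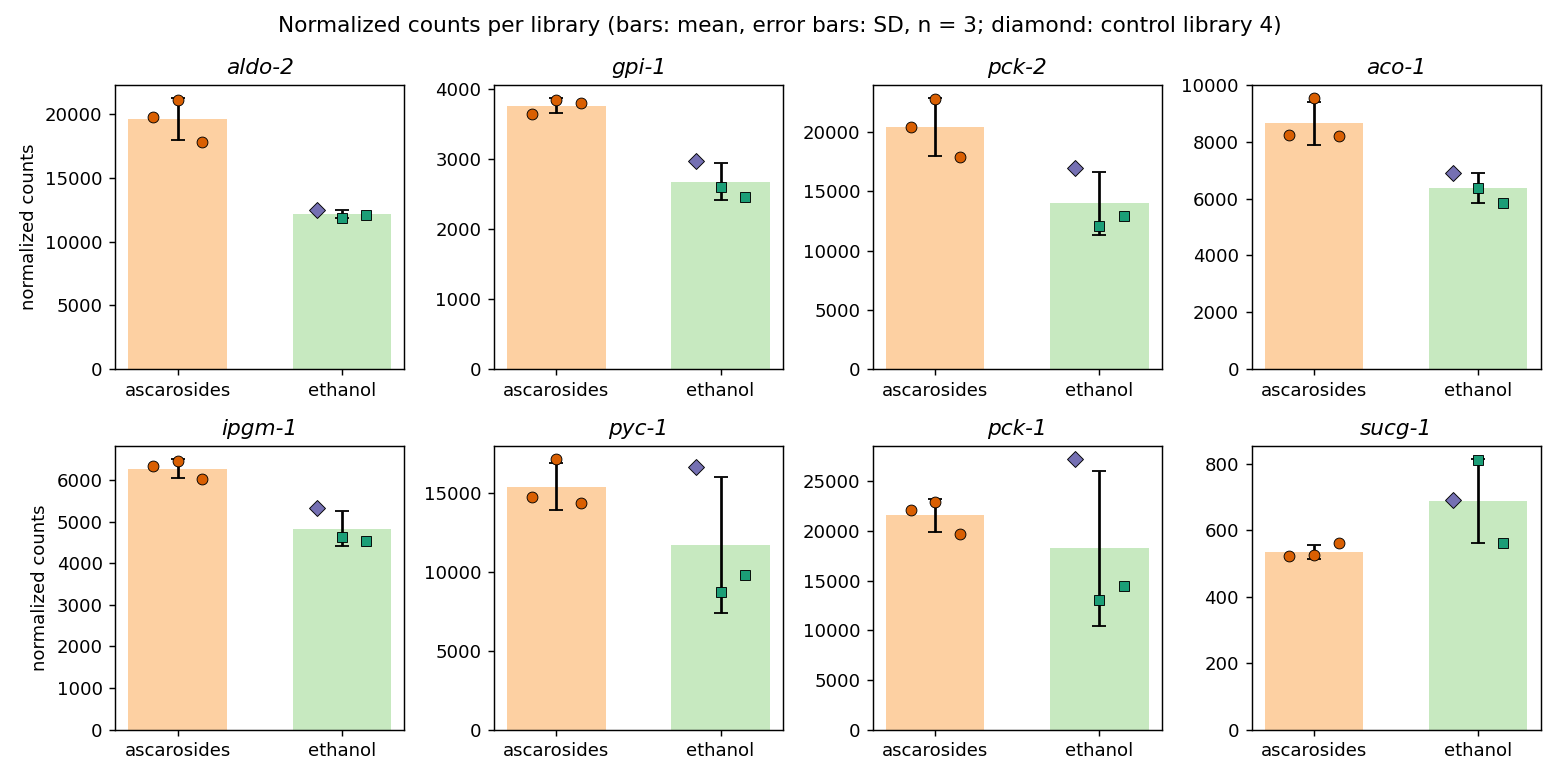
Bars give the mean normalized counts of the 3 cultures with ascarosides and the 3 with ethanol, error bars the SD and points the libraries, with control library 4 as a diamond. For aldo-2, gpi-1, pck-2, aco-1 and ipgm-1 every treated point is above every control point, for pyc-1 and pck-1 control library 4 is among or above the treated points, and for sucg-1 the 3 treated points are the lowest.

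In lower glycolysis, 0 of 9 genes were called in limma with all 6 libraries (1, ipgm-1, with DESeq2 and 0 with edgeR). All 9 log2 fold changes were above 0 (against 50.3% of all genes tested). Of the 9, 5 had an unadjusted p under 0.05 (against 8.05% of all genes tested higher). The median log2 fold change was 0.25. It was 0.35 without control library 4, where 4 of 9 were higher (against 5.22% of all genes tested). The cofactor-independent phosphoglycerate mutase gene ipgm-1 came closest. It had 6346, 6461 and 6024 normalized counts with ascarosides and 5320, 4644 and 4543 without, and these did not overlap. Its log2 fold change was 0.38 (standard error 0.108, limma adjusted p = 0.0659, range over the alternatives 0.00181 to 0.300). Without control library 4 the log2 fold change was 0.45 (limma adjusted p = 0.00181, the low end of that range).

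The glyceraldehyde-3-phosphate dehydrogenase genes fall into a strong and a weak pair. gpd-2 had 9610, 10471 and 9770 normalized counts with ascarosides and 9392, 7327 and 7245 without. gpd-3 had 11180, 12015 and 11535 with and 10673, 8270 and 8365 without. Every treated value of gpd-2 and gpd-3 was above every control value, and in both genes control library 4 was the highest control. Their log2 fold changes were 0.33 (limma adjusted p = 0.189) and 0.36 (limma adjusted p = 0.149), and 0.45 and 0.48 without control library 4 (limma adjusted p = 0.00207 and 0.00110). The other pair was low. gpd-4 had 53.9, 67.5 and 58.7 normalized counts with ascarosides and 42.01, 42.6 and 22.4 without, a log2 fold change of 0.78 (95% interval 0.17 to 1.40, limma adjusted p = 0.183). gpd-1 had between 57.6 and 76.7 normalized counts in a library, and its groups overlapped. The gpd genes have close paralogues, and a read with several equal alignments went to no gene, so the level of each is uncertain.

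At the last step, pyk-1 and pyk-2 encode pyruvate kinase, which makes pyruvate and ATP from PEP. pyk-1 had 4284, 5145 and 4640 normalized counts with ascarosides and 4469, 4131 and 4008 without, with a log2 fold change of 0.16 (95% interval -0.074 to 0.39). pyk-2 had 1095, 1044 and 924 with and 766, 942 and 862 without, with a log2 fold change of 0.25 (limma adjusted p = 0.313). For both genes the groups overlapped. An annotated antisense RNA overlaps 11.8% of the exon bases of pyk-2, and the sources used here do not say whether counting used strand. The phosphoglycerate kinase gene pgk-1 (log2 fold change 0.053) and the enolase gene enol-1 (0.24) were not called, and enol-1 had 0.35 without control library 4 (limma adjusted p = 0.0161). The sign for pgk-1 turned under quantile normalization.

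ldh-1, the lactate dehydrogenase gene that regenerates NAD+ when pyruvate is not oxidised, had 2964, 2984 and 2966 normalized counts with ascarosides, values closer to each other than those of the controls. The controls had 3290, 2456 and 2426, one above and the others below all treated values. The log2 fold change was 0.14 (95% interval -0.11 to 0.39).

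The 4 genes of gluconeogenesis had a median log2 fold change of 0.39, with 1 called and 3 not. Without control library 4 all 4 were called higher (against 5.22% of all genes tested) and the median was 0.68, while without control library 5 it was 0.24. pck-2 (WBGene00011232) had 20480, 22827 and 17933 normalized counts with ascarosides and 17011, 12064 and 12928 without. The treated values were all above the controls, though treated library 3 and control library 4 lay near each other. Its log2 fold change was 0.55 (standard error 0.146, limma adjusted p = 0.0449). The adjusted p of pck-2 was above 0.05 without treated library 1 (0.207), 2 (0.286) or 3 (0.068) or control library 5 (0.137) or 6 (0.207), and 6.56e-05 without control library 4. It was 0.0763 without a filter on low values, 0.0963 with quantile normalization and 0.293 in eBayes without trend.

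pck-1, the other PEP carboxykinase gene, had 22071, 22865 and 19708 normalized counts with ascarosides and 27208, 13031 and 14437 without. Control library 4 was the highest of all 6 libraries, 1.98 times the mean of the other controls. The log2 fold change of pck-1 was 0.32 (limma adjusted p = 0.504) with all libraries and 0.65 (limma adjusted p = 9.87e-05) without control library 4. The mitochondrial pyruvate carboxylase gene pyc-1, which makes oxaloacetate from pyruvate, showed the same split between its controls. It had 14716, 17112 and 14320 normalized counts with ascarosides and 16594, 8701 and 9756 without. Its log2 fold change was 0.45 (limma adjusted p = 0.231), and 0.73 (limma adjusted p = 2.36e-05) without control library 4. The gene of the last bypass enzyme, the fructose-1,6-bisphosphatase gene fbp-1, had 5833, 5968 and 5468 with and 5718, 4727 and 4306 without. The log2 fold change of fbp-1 was 0.24 (limma adjusted p = 0.364), and 0.35 (limma adjusted p = 0.0160) without control library 4.

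Of the trehalose and glycogen genes, 0 of 4 were called in limma (0 with edgeR and 0 with DESeq2), 1 of the 4 had an unadjusted p under 0.05, and the median log2 fold change was 0.055. Without control library 4 the median was 0.19 and 1 of 4 was called. The median turned below 0 with quantile normalization (-0.0062) and when treated library 2 (-0.015), control library 5 (-0.0042) or control library 6 (-0.026) was left out. tps-1 and tps-2 encode trehalose-6-phosphate synthase. tps-2 had 5852, 6472 and 5333 normalized counts with ascarosides and 6348, 3796 and 4142 without, a log2 fold change of 0.34 (limma adjusted p = 0.308) that was 0.57 (limma adjusted p = 4.01e-04) without control library 4. tps-1 had 2014, 2237 and 1789 with and 2108, 1856 and 1528 without, and the groups overlapped. The glycogen synthase gene gsy-1 had 3316, 3747 and 3290 with and 4470, 2928 and 3352 without. The glycogen phosphorylase gene pygl-1, whose enzyme releases glucose units from glycogen, had 5535, 6537 and 6716 with and 8855, 6046 and 5647 without. In both, control library 4 was the highest of the 6 libraries, and the log2 fold changes of -0.034 and -0.11 turned to 0.14 and 0.095 without it. The gsy-1 and pygl-1 intervals (-0.32 to 0.25 and -0.42 to 0.21) covered changes in either direction.

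**Figure D3:**
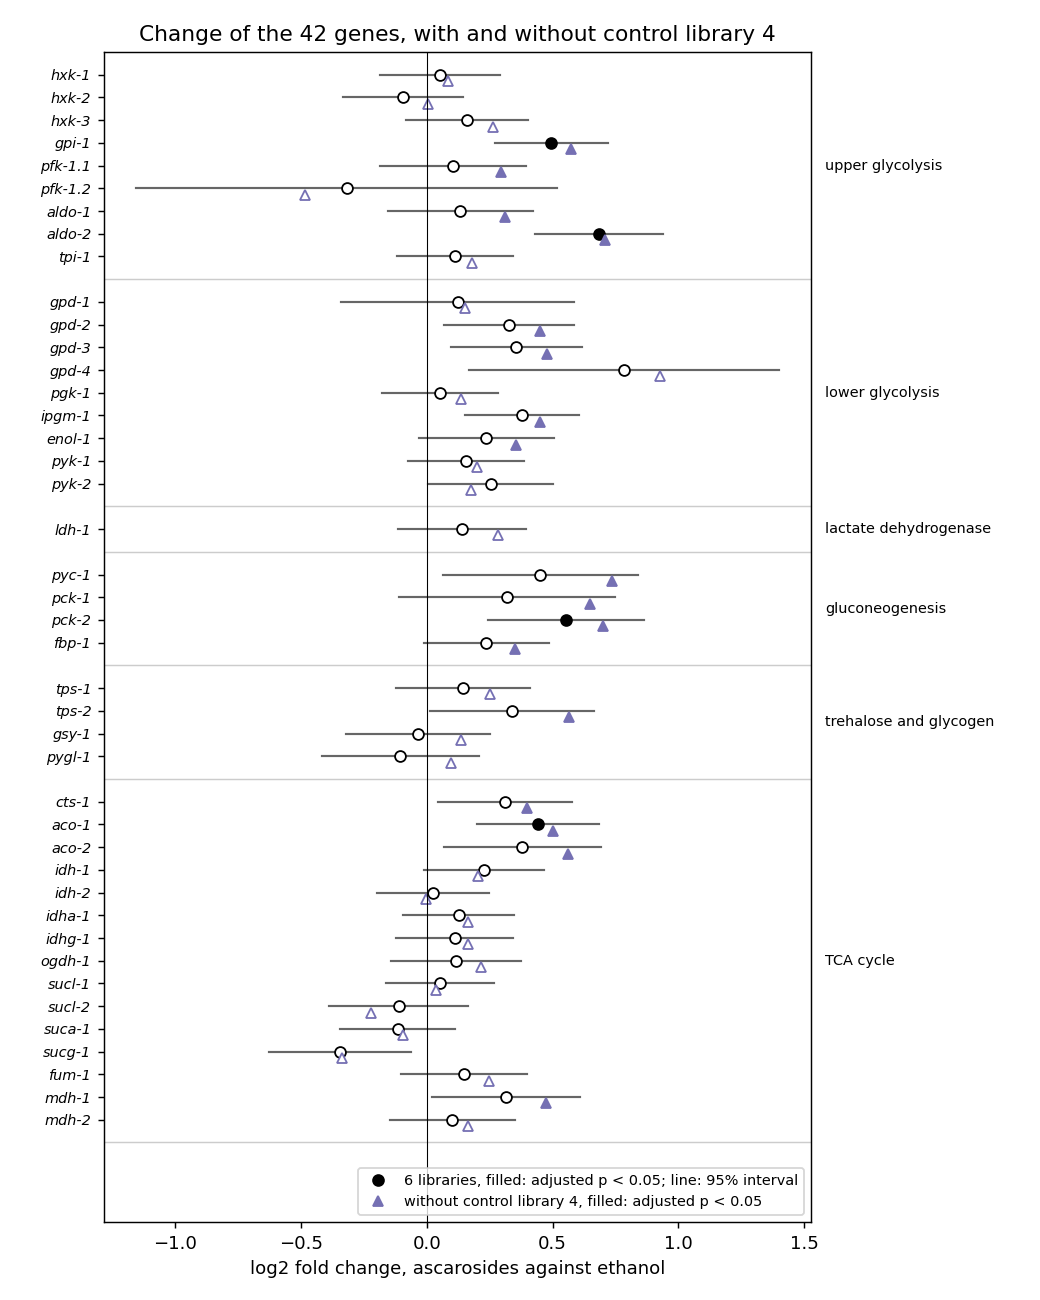
Circles give the log2 fold change of each gene with all 6 libraries (line, 95% interval) and triangles the value without control library 4, both filled at a limma adjusted p under 0.05. There are 4 filled circles and 17 filled triangles, all to the right of 0.

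In the TCA cycle and its related dehydrogenases, 1 of 15 genes rose (against 2.06% of all genes tested) and 0 fell, with a median log2 fold change of 0.12. The median was 0.16 without control library 4, where 4 of 15 were higher (against 5.22% of all genes tested). It was 0.056 without treated library 2 and 0.027 with quantile normalization. The gene that rose was aco-1 (WBGene00000040), the cytosolic aconitase, related to the iron regulatory protein of vertebrates. It had 8253, 9539 and 8199 normalized counts with ascarosides and 6897, 6366 and 5850 without. The groups did not overlap, and the log2 fold change was 0.44 (standard error 0.115, limma adjusted p = 0.0403). The adjusted p of aco-1 was above 0.05 without treated library 1 (0.135), 2 (0.280) or 3 (0.104) or control library 5 (0.0562) or 6 (0.224). It was 0.0647 without a filter on low values, 0.0633 with quantile normalization, 0.244 in eBayes without trend and 0.00118 without control library 4.

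At the entry of the cycle, cts-1 encodes citrate synthase, which joins acetyl-CoA to oxaloacetate. It had 18243, 20001 and 18543 normalized counts with ascarosides and 17246, 14443 and 14247 without. These did not overlap, with a log2 fold change of 0.31 (limma adjusted p = 0.232, and 0.00750 without control library 4). The mitochondrial aconitase gene aco-2 had 14148, 16871 and 15002 with and 15080, 9977 and 10788 without, a log2 fold change of 0.38 (limma adjusted p = 0.207) that was 0.56 (limma adjusted p = 4.73e-04) without control library 4. The cytosolic malate dehydrogenase gene mdh-1 had 12865, 13818 and 11570 with and 12773, 9195 and 9103 without, a log2 fold change of 0.31 (limma adjusted p = 0.288) that was 0.48 (limma adjusted p = 0.00210) without control library 4. In aco-2 and mdh-1 control library 4 lay among the treated values and the other controls below them.

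Another 7 genes of this group differed less. The NADP-dependent isocitrate dehydrogenase gene idh-1 (cytosolic) had a log2 fold change of 0.23 and its mitochondrial counterpart idh-2 one of 0.025. The subunit genes of the NAD-dependent enzyme, idha-1 and idhg-1, had 0.13 and 0.11, the 2-oxoglutarate dehydrogenase gene ogdh-1 0.12, the fumarase gene fum-1 0.15 and the mitochondrial malate dehydrogenase gene mdh-2 0.10, whose sign turned under quantile normalization. The idh-1 groups did not overlap, and none of these 7 genes was called with or without control library 4.

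Of the 4 succinyl-CoA ligase genes, 3 had log2 fold changes below 0. The enzyme makes succinate and a nucleoside triphosphate, with alpha subunits from sucl-1 and sucl-2 and beta subunits from suca-1 (ADP-forming) and sucg-1 (GDP-forming). sucg-1 had 522, 526 and 561 normalized counts with ascarosides and 691, 813 and 562 without. All treated values were below all controls, but treated library 3 and control library 6 differed by less than 2 normalized counts. Its log2 fold change was -0.35 (95% interval -0.63 to -0.062, limma adjusted p = 0.207). Those of sucl-2 and suca-1 were -0.11 and -0.12, and that of sucl-1 was 0.054, or -0.012 with quantile normalization.

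Shares of paralogues within an enzyme were compared as counts per kb of exon, and 19 ratios between pairs of genes were compared within libraries, which removes the size factor. With 3 against 3 libraries the smallest exact permutation p (two-sided) is 0.1, or 0.38 after Benjamini-Hochberg adjustment over the 19 pairs, so no ratio could reach 0.05. The groups did not overlap for 5 of the 19 pairs, each at an exact p of 0.1. No share over all pairs of genes was computed beside this count, so it is descriptive only. The aldolase genes showed the widest of these shifts. aldo-2 held 74.5%, 74.0% and 70.1% of aldolase counts per kb in the treated libraries and 59.6%, 66.6% and 67.7% in the controls. The log2 ratio of aldo-1 to aldo-2 was -1.55 ± 0.174 (SD, n = 3) with ascarosides and -0.99 ± 0.274 without.

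The other ratios without overlap were hxk-3 to hxk-2 and suca-1 to sucg-1, higher with ascarosides by 0.25 and 0.23 on the log2 scale, pck-2 to pyk-1, higher by 0.40, and ldh-1 to cts-1, lower (difference -0.17). The ratio of pck-2 to pyk-1 sets an enzyme that makes PEP beside an enzyme that uses it, and the log2 ratio was 2.12 ± 0.156 (SD, n = 3) with ascarosides and 1.72 ± 0.193 without. The ratio of fbp-1 to pfk-1.1, the opposing enzymes of upper glycolysis, overlapped between the groups (difference 0.13, exact p = 0.4), as did pck-1 to pck-2 (difference -0.23, exact p = 0.2). The cytosolic to mitochondrial ratios of aconitase (aco-1 to aco-2), isocitrate dehydrogenase (idh-1 to idh-2) and malate dehydrogenase (mdh-1 to mdh-2) overlapped as well, with exact p-values of 0.7, 0.4 and 0.2.

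**Figure D4:**
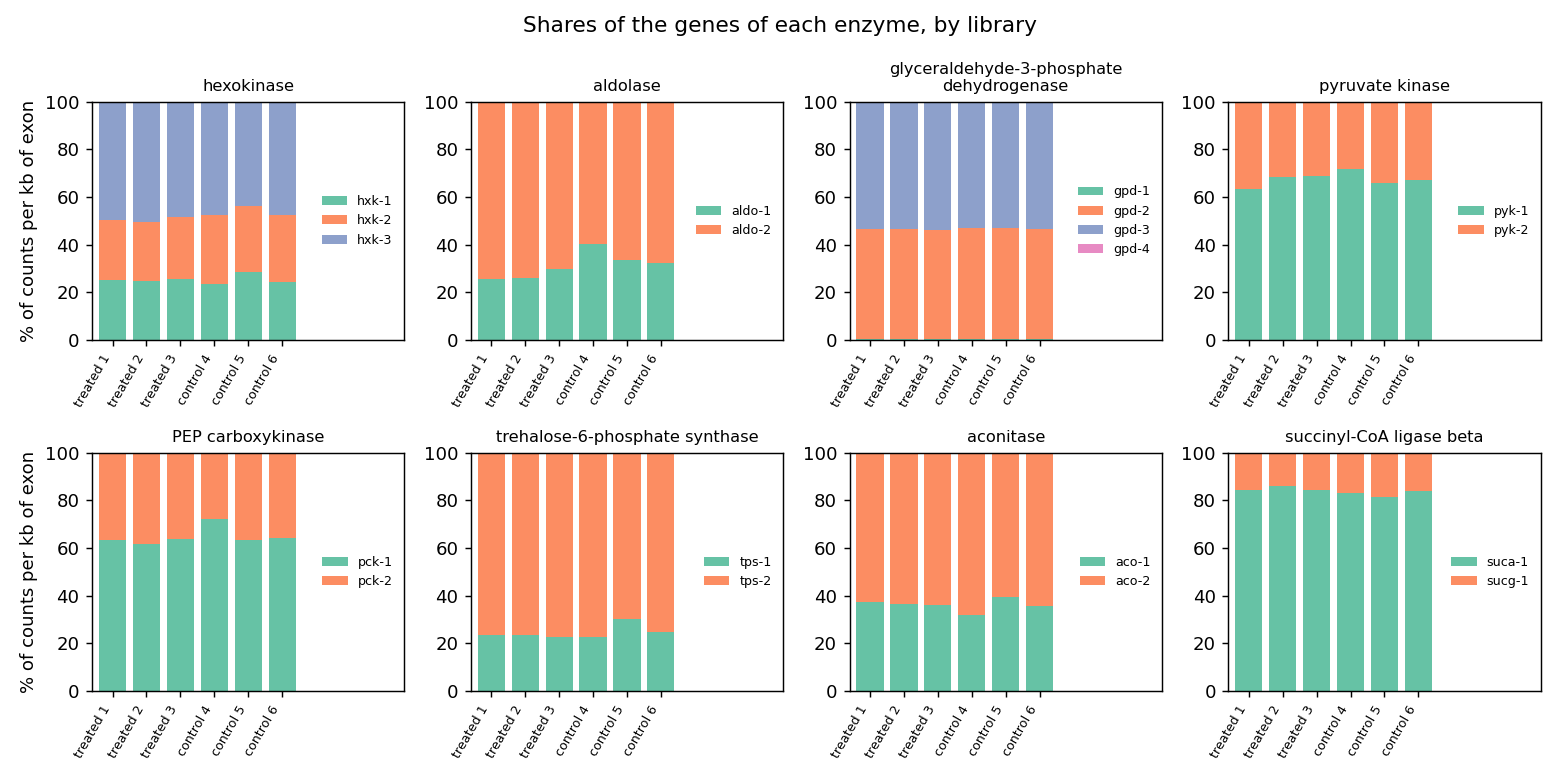
Each bar is a library and each colour the percentage of an enzyme's normalized counts per kb of exon that falls on a gene. Only the genes shown in a panel enter its percentages. The aldo-2 share is 70.1% or more in the treated libraries and 67.7% or less in the controls, while gpd-2 and gpd-3 hold nearly all counts of their enzyme and gpd-1 and gpd-4 are too thin to see.

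Most of the genes were abundant. In the controls the highest levels per kb of exon were those of mdh-1 (9014 ± 1821 normalized counts per kb, SD, n = 3), cts-1 (8954 ± 981), aldo-2 (8939 ± 244), pck-1 (8843 ± 3790) and mdh-2 (8810 ± 709), which differed from each other by less than their spread. In the treated libraries aldo-2 led with 14415 ± 1210, above mdh-1 at 11098 ± 982. In the controls 39 of the 42 genes lay above at least 77.6% of all genes tested per kb, and gpd-1, gpd-4 and pfk-1.2 were the exceptions at 58.2, 31.6 and 8.75 normalized counts per kb.

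Other genes of the same pathways were taken from lists made by function, with earlier results of these data known. Of the 8 genes that bring pyruvate to acetyl-CoA (pyruvate dehydrogenase, its kinase and phosphatase and the mitochondrial pyruvate carrier), 0 were called in limma (0 with edgeR and 0 with DESeq2) and 1 had an unadjusted p under 0.05, with a median log2 fold change of 0.17. The dehydrogenase subunit gene dld-1 had the largest value, 0.27, and was called without control library 4 (0.30, limma adjusted p = 0.0488). Of 9 other TCA and glyoxylate genes, 1 rose (against 2.06% of all genes tested) and 0 fell (median 0.16). Without control library 4, 3 of 9 were higher (against 5.22% of all genes tested), with a median of 0.23. They were icl-1 and the succinate dehydrogenase genes sdha-1 (limma adjusted p = 0.0196) and sdha-2 (limma adjusted p = 0.0198). With all libraries sdha-2 had a log2 fold change of 0.54 (limma adjusted p = 0.0631). The gene that rose with all 6 libraries was icl-1 (WBGene00001564), whose protein carries both activities of the glyoxylate cycle, isocitrate lyase and malate synthase. It had 66658, 77883 and 53604 normalized counts with ascarosides and 55453, 26887 and 28951 without, and treated library 3 was below control library 4. The log2 fold change of icl-1 was 0.90 (standard error 0.230, limma adjusted p = 0.0391), and 1.23 (limma adjusted p = 5.18e-07) without control library 4. With any one of the other libraries left out the adjusted p of icl-1 lay above 0.05: 0.172, 0.249 and 0.0516 without treated libraries 1, 2 and 3, and 0.143 and 0.206 without control libraries 5 and 6. It was 0.0559 without a filter on low values, 0.0573 with quantile normalization, 0.124 with the robust option, 0.267 with DESeq2 and 0.330 in eBayes without trend.

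Of 9 other trehalose and glycogen genes, 1 rose (against 2.06% of all genes tested) and 0 fell (median 0.15). Without control library 4, 3 of 9 were higher (against 5.22% of all genes tested), with a median of 0.34. gyg-1, a glycogenin gene whose protein primes glycogen synthesis, had 2555, 2728 and 2506 normalized counts with ascarosides and 1957, 1914 and 1580 without, which did not overlap. The log2 fold change of gyg-1 was 0.52 (standard error 0.111, limma adjusted p = 0.0118). The adjusted p of gyg-1 was above 0.05 in eBayes without trend (0.199) and without treated library 1 (0.065) or 2 (0.115) or control library 6 (0.101). The trehalase genes tre-1 to tre-5 and the trehalose-6-phosphate phosphatase gene gob-1 were not called with all libraries. Without control library 4 the calls beside gyg-1 were tre-1 (log2 fold change 0.40, limma adjusted p = 0.0184) and agl-1, the glycogen debranching enzyme gene (0.59, limma adjusted p = 7.21e-04). In the pentose phosphate pathway 0 of 4 genes were called in limma (0 with edgeR and 0 with DESeq2), 1 had an unadjusted p under 0.05 and the median was 0.23. Without control library 4 the median was 0.12, lower rather than higher, and 0 of 4 were called. The transketolase gene tkt-1 had the largest value, 0.30. There control library 4 was the highest control in 0 of 4 genes, unlike in gluconeogenesis, where it was the highest in 4 of 4.

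Some genes outside these pathways moved with the same libraries, and others did not. The 6 low oxygen reporters are genes known to rise through the hypoxia factor HIF-1. Of these, 2 rose (nhr-57 and F22B5.4, against 2.06% of all genes tested) and 0 fell, with a median log2 fold change of 0.69. The median was 0.99 without control library 4, where 6 of 6 were higher (against 5.22% of all genes tested). The adjusted p of nhr-57 was above 0.05 with quantile normalization (0.0505) and the robust option (0.0594), and without treated library 1 (0.172), 2 (0.243) or 3 (0.0768) or control library 5 (0.0963) or 6 (0.134). That of F22B5.4 was above 0.05 with the robust option (0.260) and DESeq2 (0.145), and without treated library 1 (0.0513) or 2 (0.0616). In eBayes without trend the adjusted p was 0.343 for nhr-57 and 0.274 for F22B5.4. The normalized counts of these 6 genes summed to 14456, 14401 and 10411 in the treated libraries and to 12740, 6635 and 7786 in the controls. The sum of control library 4 thus lay within the treated range. Taken singly, control library 4 lay within the treated range for phy-2, egl-9, rhy-1 and cysl-2. For nhr-57 it had 482, below the lowest treated value of 495, and for F22B5.4 it had 1009, below the lowest treated value of 1031. The body muscle markers myo-3 and unc-54 summed to between 61982 and 78115 in the treated libraries. They summed to 80073 in control library 4, against 47436 and 51794 in control libraries 5 and 6. For unc-54 control library 4 (74392) was above all treated values (56174 to 71328). For myo-3 control library 4 (5681) was below all treated values (5808 to 6787), and the groups did not overlap. The pharynx marker myo-2 had between 16724 and 20193 in the treated libraries and 20089, 12697 and 15901 in the controls. The neuron markers rab-3 and snb-1 summed to between 3951 and 4382 in all 6 libraries. The intestine marker ges-1 rose (log2 fold change 0.78, limma adjusted p = 4.20e-04) and elt-2 had -0.17 (limma adjusted p = 0.709), and together they summed to between 1188 and 1316 in the treated libraries and 788 and 831 in the controls. The epidermis markers dpy-7 and rol-6 summed to between 7193 and 7749 in the treated libraries and 8683 and 8908 in the controls, and the germ line markers pgl-1 and glh-1 to between 1259 and 1356 and between 1081 and 1230. No marker gene was at 0 in all libraries. The part of these genes' levels in the changes of the 42 genes was not tested.

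**Figure D5:**
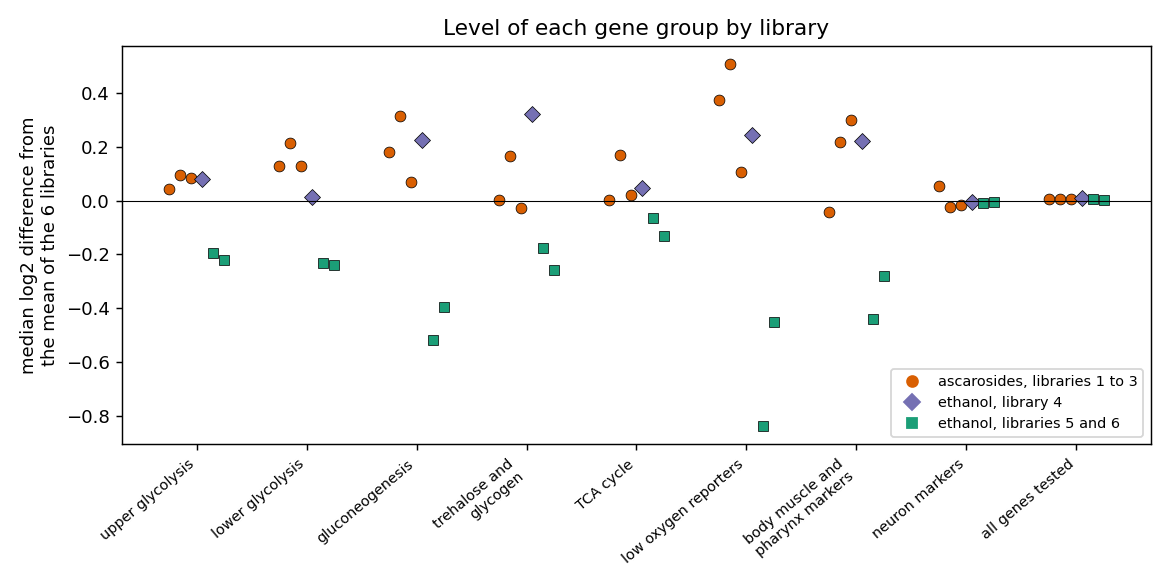
Each point is the median over the genes of a group of the log2 difference from the mean of the 6 libraries. In gluconeogenesis the treated libraries lie at 0.18, 0.32 and 0.071 and control library 4 at 0.22, while control libraries 5 and 6 lie at -0.52 and -0.40. The low oxygen reporters and the body muscle and pharynx markers show the same order of control libraries, and the neuron markers and all genes tested lie near 0.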

How the data were processed

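The authors used ShortRead for quality, tophat2 for alignment and HTSeq-count for counting. The deposited signal of a gene in a library is its read count over the DESeq size factor. The build is WBcel215 in the methods of the study and WBcel235 in the submitters' processing notes, so no coordinates are given. Versions and the strand setting are not given in the sources used here. The 5 lines that name no gene (33.1% to 41.8% of a column) were left out. Whole reads, within 0.01, were recovered for 100% of values by dividing by the smallest step.

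The test was limma 3.58.1 in R 4.3.3 (eBayes with trend, two-sided) on log2(normalized count + 1), applied to the 14965 genes whose mean reached 5. A fold change on this scale understates that of low genes. Alternatives were pseudocounts of 0.5 and 5, a filter at a mean of 50 or none, upper-quartile or quantile scaling, the robust option, eBayes without trend, the recovered reads in DESeq2 1.42.0 and in edgeR 4.0.16, and leaving out each library. Exon lengths came from the WBcel235 annotation. The scripts were tested on simulated counts. Values in every library are given for those of the 42 genes at an unadjusted p under 0.05, the 5 largest changes and a list of branch point enzymes, and of the other pathway lists for icl-1 and gyg-1. Members and lists were chosen with earlier results of these data known. The name fgt-1, on the list of sugar uptake and sensing genes, had no match, and the 2 others on it, aak-1 and aak-2, were not called (median 0.16). Gene sequences are not shown.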

Additional observations from a re-analysis of the deposited data

How the results depend on the processing

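No paired analysis was possible because replicate numbers appear only in the labels, not on the columns. Of the 42 genes, 4 were called higher with pseudocounts of 0.5 and 5, a minimum mean of 50 (40 genes tested), upper-quartile scaling, the robust option and edgeR, and the same 4 with ipgm-1 (5 genes) under DESeq2. In these fits between 3.41% (robust option) and 4.58% (minimum mean of 50) of all genes tested were called in either direction. There were 2 (4.76%), gpi-1 and aldo-2, without a filter (against 2.28% of all genes tested) and with quantile normalization (against 3.30%), and 0 in eBayes without trend, where 1 of all 14965 genes was called. With one library left out the count ranged from 1 to 17. At an unadjusted p under 0.001 it was 2 with all libraries (against 1.66% of all genes tested higher). At that threshold it was 1 without trend, 3 with the robust option, 5 with DESeq2, and 1 to 15 with one library left out. The 15 came without control library 4. At this threshold the share of all genes tested is given only for the fit with all libraries. No gene of the 42 was called lower in any of these fits. The other pathway genes gave 4 calls of 38 with all libraries (against 2.06% of all genes tested higher), 2 with quantile normalization, 0 without trend and 1 with the robust option. They gave 5 with edgeR and 3 with DESeq2 (against 3.60% and 4.24% of all genes tested in either direction). With one library left out they gave 0 to 13. The 13 came without control library 4 (against 5.22% of all genes tested higher).

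The upper glycolysis median was 0.26 without control library 4 and lay between 0.035 and 0.26 over the libraries left out. The ratios whose groups did not overlap numbered 5, 2 with quantile normalization and 6 to 10 with one library left out. Groups of fewer libraries overlap less readily, so the last range cannot be set beside the 5. Quantile normalization lowered the median of the 42 genes from 0.15 to 0.086 and gave log2 fold changes of -0.0099 for pgk-1, -0.012 for sucl-1, -0.068 for mdh-2, -0.0067 for dlst-1 and -0.0196 for aak-2. For men-1 it was 0.019 with upper-quartile scaling and 0.0019 with edgeR. With one library left out the log2 fold changes that changed sign ranged from -0.046 to 0.12 for hxk-1, -0.15 to 0.0057 for hxk-2, -0.0033 to 0.29 for pfk-1.1, -0.17 to 0.14 for gsy-1, -0.23 to 0.095 for pygl-1, -0.015 to 0.072 for idh-2, -0.22 to 0.019 for sucl-2, -0.049 to 0.044 for men-1, -0.0077 to 0.12 for gob-1, -0.10 to 0.34 for tre-2, -0.045 to 0.15 for gspd-1 and -0.10 to 0.18 for aak-2. The cause was not tested. Depth limits the low genes most: the fewest reads on any of the 42 genes in a library were 14, on pfk-1.2.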
